A study of Mus musculus with 9 samples.

Results

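The proteasome genes of mouse liver were followed in 3 diet groups. Members were the gene entries of the expression table whose symbol matched the names of the 20S core subunits (Psma and Psmb), the 19S cap subunits (Psmc and Psmd), the activators (Psme), the inhibitor PI31 (Psmf1), the assembly chaperones (Psmg) or Pomp. The rule found 64 of 52151 gene entries. Of these 64 entries, 51 held a known transcript, and 13 were assembled fragments without one.

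Livers came from mice of 8 weeks by the age label, after 5 weeks of feeding. The pair-fed group (PF) received an isocaloric control liquid diet, and the alcohol-fed group (AF) received the Lieber-DeCarli diet. The third group (AF with MNA) received the Lieber-DeCarli diet and a daily intraperitoneal injection of MNA, a compound named only by these letters, at 50 mg/kg. Each group had 3 libraries, and the labels name no vehicle injection in any group. The strain label was C57BL/6 for PF and AF, and it read C57BL/7, C57BL/8 and C57BL/9 for the 3 mice with MNA. These labels count up by sample and may be an entry error, so the strain of the MNA mice is uncertain. The study's methods give male C57BL/6J mice for PF and AF and do not describe the MNA group. Each library carries its own animal number, and cages and litters are not given. Hepatocyte markers summed to between 15046 and 21969 FPKM (fragments scaled to transcript length and to library size) in the 9 libraries, and leukocyte markers summed to between 9.04 and 34.5 FPKM. Alb (albumin) made up most of the hepatocyte sum, which therefore says little about the other 7 markers. Of the 8, Tat (tyrosine aminotransferase) was higher in AF than in PF at the unadjusted threshold (log2 ratio 1.24, adjusted p = 0.393 in limma), with overlapping libraries, and 7 did not pass. In whole liver, fewer cells of a type and less RNA per cell cannot be told apart.

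The proteasome degrades proteins that carry ubiquitin chains. Its 20S core is a stack of rings made of alpha and beta subunits, and the proteolytic sites sit in Psmb5 (chymotrypsin-like), Psmb6 (caspase-like) and Psmb7 (trypsin-like). The 19S cap recognises ubiquitin, unfolds the substrate with its ring of ATPases and feeds it into the core. Interferon induces Psmb8, Psmb9 and Psmb10, which replace Psmb5, Psmb6 and Psmb7 in new cores and form the immunoproteasome, a source of peptides for MHC class I presentation. Liver injury by alcohol has long been studied together with the proteasome, since damaged and aggregated proteins gather in hepatocytes.

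Promoter sequence is shown for the members around which the results turn. Psmb9 and Tap1, a subunit of the transporter that carries proteasome-made peptides into the endoplasmic reticulum, start back to back, and both were lower in AF. The whole stretch between their RefSeq starts is 225 bases, shown first and read in the direction of Psmb9. Next come the 250 bases before the RefSeq starts of Psmb8 and Psmf1. Capitals mark matches to the motifs searched, which were TGANNNNGC (the core of the antioxidant response element), CCAAT (the NF-Y box), a pair of GAAA blocks 2 bases apart (the core of the interferon-stimulated response element) and TTCNNNGAA (the interferon gamma activated sequence).
Psmb9 to Tap1, GRCm38 chr17:34187331-34187555, minus strand: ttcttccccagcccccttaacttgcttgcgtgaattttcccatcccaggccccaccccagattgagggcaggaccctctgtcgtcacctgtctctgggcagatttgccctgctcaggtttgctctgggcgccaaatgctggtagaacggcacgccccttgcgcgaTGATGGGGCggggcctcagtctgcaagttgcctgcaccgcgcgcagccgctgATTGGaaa
Psmb8, GRCm38 chr17:34197945-34198194, plus strand: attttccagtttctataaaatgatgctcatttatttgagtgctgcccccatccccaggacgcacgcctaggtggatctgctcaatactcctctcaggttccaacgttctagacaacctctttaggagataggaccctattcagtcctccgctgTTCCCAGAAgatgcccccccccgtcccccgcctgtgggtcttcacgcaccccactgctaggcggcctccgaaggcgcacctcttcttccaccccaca
Psmf1, GRCm38 chr2:151741311-151741560, minus strand: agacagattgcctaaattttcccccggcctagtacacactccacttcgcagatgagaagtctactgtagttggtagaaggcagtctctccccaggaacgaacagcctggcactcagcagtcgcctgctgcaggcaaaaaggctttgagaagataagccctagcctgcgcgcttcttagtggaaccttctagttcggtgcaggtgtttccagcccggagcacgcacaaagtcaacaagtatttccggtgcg
In the shared stretch the capitals are an antioxidant response element core and an NF-Y box read from the other strand. In Psmb8 they are an interferon gamma activated sequence, and the Psmf1 window held none of the 4 motifs. These letters are a description and no evidence of binding.

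Over all members, 41 RefSeq promoter windows of 38 genes were found by symbol for 46 genes (Psma8 included, Psmc3ip and pseudogenes left out), each from 250 bases before to 50 bases after the start. The antioxidant response element core, a site of Nfe2l1 and Nfe2l2, was present in 22 of these 41 windows (53.7%) against 41.3% of all 32851 windows. The NF-Y box was present in 13 windows (31.7%) against 37.4%. The core of the interferon-stimulated response element was present in the windows of Psmb3, Psmd4, Psmd9, Psme1 and Psmg4, 12.2% against 3.44%. The interferon gamma activated sequence was present in those of Psmb8 and Psmd2, 4.88% against 8.30%. All motifs were searched on both strands, and their matches may overlap.

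Of the 51 known entries, 46 had a mean of at least 0.5 FPKM in each comparison and were tested with limma on log2(FPKM + 1). They were 14 constitutive core subunits, 3 immune subunits, 16 subunits of the 19S cap, 3 cap chaperones, 4 activator genes, 4 core chaperones, Psmf1 and Psmc3ip, a recombination protein that only shares the name. The 5 entries under the filter were the testis subunit Psma8, at 0.04 to 0.32 FPKM, a second Psmd5 entry with values up to 0.82 FPKM, and 3 pseudogenes that were each above 0 in 1 library only. The 13 fragments reached at most 3.03 FPKM. Psmd1, the largest cap subunit, and the core chaperone Psmg1 lay within entries named for the neighbouring genes Armc9 and Brwd1, and were not members by name. The entry of Psma4 also held Hykk, and that of Psmg3 also held Tmem184a. An entry's FPKM is spread over the union of its exons, retained introns included, so a level compares one gene between libraries better than several genes within a library.

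Proteasome genes were steady between libraries. The coefficient of variation over the 9 libraries had a median of 12.4% among the 46 members and of 23.1% among all 11801 entries tested in every comparison. Among entries with a mean of at least 5 FPKM these medians were 11.7% (36 members) and 18.2% (3604 entries). The steadiest member was Pomp, the chaperone that matures the core, with 8.33, 8.72 and 9.21 FPKM in PF and 8.46, 8.13 and 7.84 in AF, against 8.81, 8.43 and 8.53 in AF with MNA. At the other end was Psmb5, with a coefficient of variation of 36.8%.

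**Figure D1:**
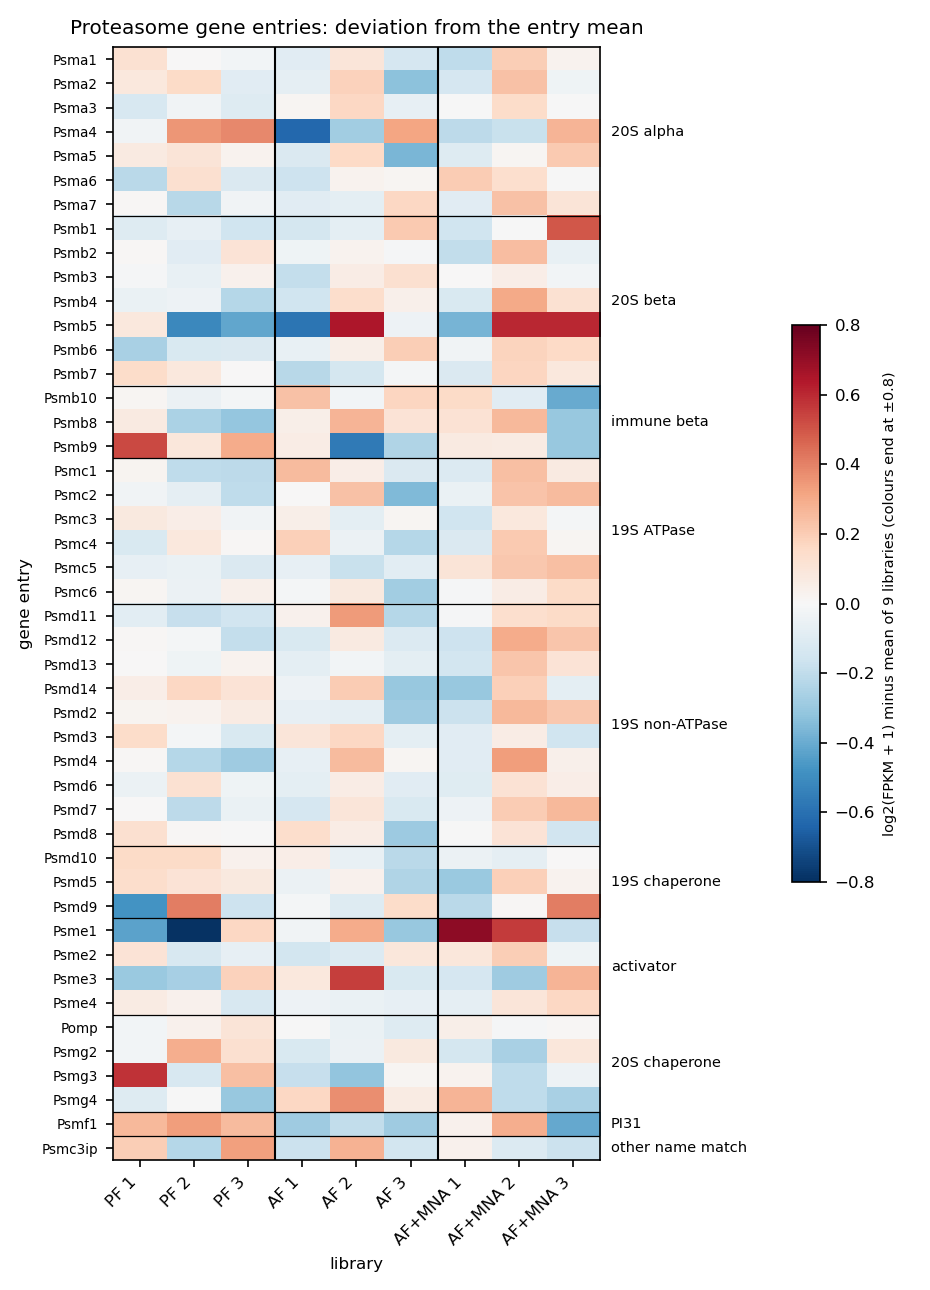
Deviation of each of the 46 tested proteasome entries (rows, grouped by subunit class) from its own mean over the 9 libraries (columns), in log2(FPKM + 1). Colours end at 0.8 in either direction. Most cells are pale, Psmf1 is red in the 3 PF and blue in the 3 AF libraries, and all 16 rows of the 19S cap are red in AF with MNA replicate 2.

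In AF against PF, 2 of the 46 members passed an unadjusted p of 0.05 in limma, against a background of 11.7% of all 12273 entries tested, and both were lower in AF. They were Psmb9 and Psmf1. For long non-coding RNAs (lncRNAs) tested with Ballgown, the study's methods use a log2 fold change beyond 1 or -1 with p under 0.05. By that threshold of the methods, applied here to gene entries with the limma p, 0 members passed against a background of 4.29%. After Benjamini-Hochberg adjustment over all entries in limma, 0 members passed against 0.326%. The members' median log2 fold change was -0.02, and that of all entries was -0.03. A 95% interval of the difference lay wholly within 0.5 of 0 for 28 members, against a background of 34.2%, and wholly within 1 of 0 for 42 members, against 81.4%.

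Psmf1 encodes PI31, known as an inhibitor of the 20S core in vitro and as an adaptor in proteasome transport. Its FPKM was 3.37, 3.61 and 3.35 in PF and 1.99, 2.18 and 2.00 in AF, against 2.74, 3.46 and 1.75 in AF with MNA. PF and AF stood apart, and each group lay close together. The AF with MNA libraries spread from under the AF range into the PF range. The log2 ratio of the AF mean to the PF mean was -0.74, and the difference in log2(FPKM + 1) was -0.54 (SE 0.106, n = 3 and 3, adjusted p = 0.126 in limma). Under the 16 alternatives tried, its unadjusted p stayed under 0.05 in 16 and its adjusted p ranged from 0.110 to 0.341.

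The constitutive catalytic subunits did not pass the test in AF. Psmb6 measured 25.46, 28.18 and 28.26 FPKM in PF and 29.41, 31.71 and 35.28 in AF. All AF libraries lay above all PF libraries, with a log2 ratio of 0.24 (adjusted p = 0.56 in limma). Psmb7 measured 14.44, 13.83 and 12.97 FPKM in PF and 10.95, 11.69 and 12.80 in AF. Here all AF libraries lay below all PF libraries, with a log2 ratio of -0.22 (adjusted p = 0.569 in limma). Psmb5 measured 33.43, 21.72 and 23.42 FPKM in PF and 20.64, 49.86 and 30.56 in AF. AF replicate 2 held the highest Psmb5 value and AF replicate 1 the lowest of all 9 libraries, and the interval of the difference, from -0.51 to 1.08, left its direction undetermined.

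Of the 3 immune subunits, Psmb9 was lower in AF at the unadjusted threshold, and Psmb8 and Psmb10 did not pass. Psmb9, the immune form of the caspase-like site, measured 3.08, 2.01 and 2.48 FPKM in PF and 1.94, 0.91 and 1.39 in AF, against 1.97, 1.96 and 1.29 in AF with MNA. Every PF library lay above every AF library, with PF replicate 2 and AF replicate 1 close to each other. The log2 ratio was -0.84 (SE of the limma difference 0.199, adjusted p = 0.37 in limma). It no longer passed the unadjusted threshold without PF replicate 1, PF replicate 3, AF replicate 2 or AF replicate 3, and over 15 alternatives its adjusted p ranged from 0.271 to 0.648.

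Psmb8, the immune form of the chymotrypsin-like site, measured 4.69, 3.55 and 3.37 FPKM in PF and 4.60, 5.53 and 4.85 in AF, against 4.86, 5.48 and 3.39 in AF with MNA. The PF and AF libraries overlapped through PF replicate 1, and the log2 ratio was 0.37 (adjusted p = 0.485 in limma). Psmb10, the immune form of the trypsin-like site, measured 7.10, 6.75 and 6.92 FPKM in PF and 8.44, 6.88 and 8.05 in AF, against 7.93, 6.54 and 5.07 in AF with MNA. Its AF libraries also overlapped PF, with a log2 ratio of 0.17 (adjusted p = 0.683 in limma). None of the 5 leukocyte markers that were tested passed, and their list summed to 13.7 to 22.9 FPKM in PF and 9.04 to 32.0 in AF. Of the 10 macrophage markers tested, Marco was higher in AF and the rest did not pass, with a summed level of 85.8 to 126.5 FPKM in PF and 84.6 to 169.8 in AF. Of the 6 endothelial markers, Pecam1 and Cdh5 were higher in AF at the unadjusted threshold, all 6 had log2 ratios above 0 (median 0.43), and their summed level was 22.7 to 29.5 FPKM in PF and 30.5 to 43.2 in AF, without overlap. The part of these cells in the immune subunits' levels was not tested.

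Dividing each immune subunit by its constitutive counterpart within a library cancels the library's scaling. The ratio of Psmb9 to Psmb6 was 0.121, 0.0713 and 0.0878 in PF and 0.0660, 0.0287 and 0.0394 in AF, against 0.0655, 0.0561 and 0.0375 in AF with MNA. All AF libraries and all AF with MNA libraries lay under all PF libraries. The mean log2 ratio differed by -1.11 between AF and PF and by -0.82 between AF with MNA and PF, each with an exact permutation p of 0.1 (adjusted p = 0.3 over 9 tests), which is the smallest that 3 against 3 allow.

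The ratio of Psmb10 to Psmb7 was 0.492, 0.488 and 0.534 in PF and 0.771, 0.589 and 0.629 in AF, against 0.668, 0.443 and 0.367 in AF with MNA. It was higher in every AF library than in every PF library, by 0.39 on the log2 scale (exact permutation p = 0.1, adjusted p = 0.3), while AF with MNA spanned both groups. The ratio of Psmb8 to Psmb5 overlapped between PF (0.140 to 0.163) and AF (0.111 to 0.223), with a log2 difference of 0.08 (exact permutation p = 0.8).

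**Figure D2:**
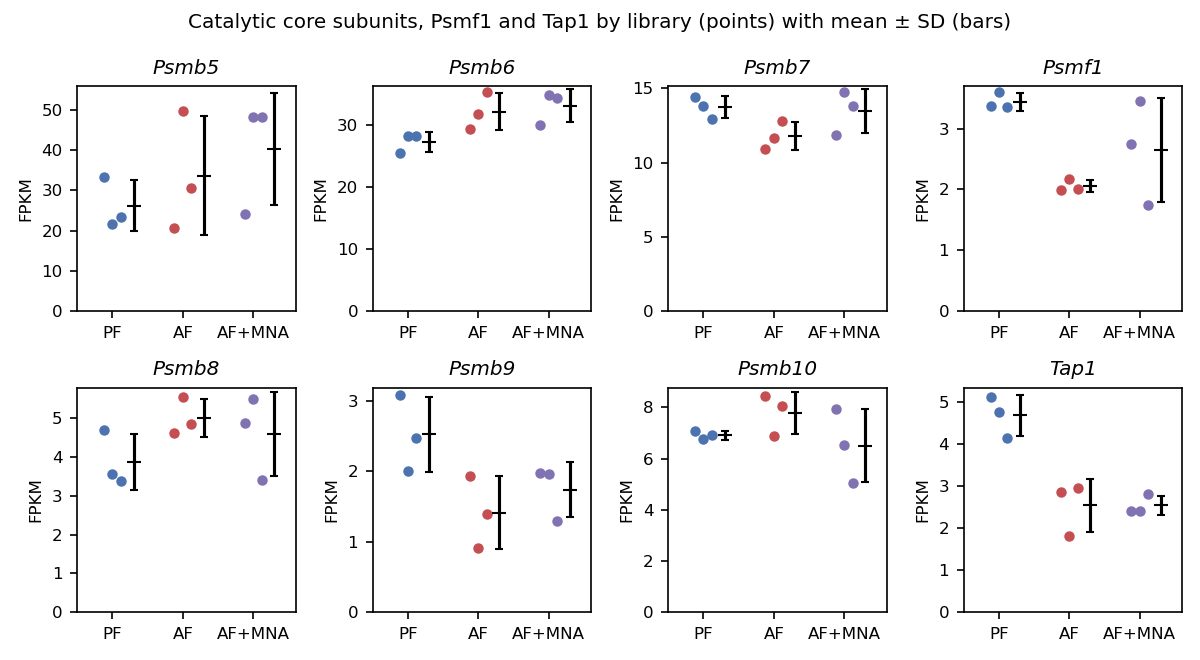
FPKM of the constitutive catalytic subunits Psmb5, Psmb6 and Psmb7, their immune counterparts Psmb8, Psmb9 and Psmb10, Psmf1 and Tap1, with 1 point per library and bars for mean ± SD of 3 libraries. Psmf1, Psmb9 and Tap1 are lower in all AF than in all PF libraries, and Psmb5 has the widest spread.

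Tap1, whose RefSeq start lies 225 bases from that of Psmb9 on the opposite strand, was read beside it for that reason. It measured 5.12, 4.77 and 4.14 FPKM in PF and 2.85, 1.82 and 2.96 in AF, against 2.42, 2.40 and 2.81 in AF with MNA. No library of either alcohol-fed group reached the PF range. The log2 ratio to PF was -0.88 in AF (adjusted p = 0.211 in limma) and -0.88 in AF with MNA (adjusted p = 0.0907 in limma), and these comparisons share the PF libraries. Tap2, the partner of Tap1 in the transporter, was higher in all AF than in all PF libraries, with a log2 ratio of 0.22 (adjusted p = 0.588 in limma). Psmb9 and Psmb8 both lie in the MHC region of chromosome 17, Psmb9 from 34181987 to 34187764 and Psmb8 from 34197721 to 34201454 in GENCODE M21 (GRCm38). In the same annotation Psmf1 lies on chromosome 2 from 151715812 to 151744186, and Psmc5 on chromosome 11 from 106256154 to 106263120.

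Among 16 tested genes of the interferon response, 5 were lower and 0 were higher in AF at an unadjusted limma p of 0.05. Ifit1, an RNA-binding antiviral protein, had a log2 ratio of -1.22 (adjusted p = 0.125 in limma), and Iigp1, an interferon-induced GTPase, had one of -0.71 (adjusted p = 0.211). The list's median was -0.46, and 5.10% of all entries passed in the higher and 6.57% in the lower direction. Among 13 regulators of proteasome genes, Irf1, which carries interferon signals to the immune subunits, was lower at the unadjusted threshold with a log2 ratio of -0.91 (adjusted p = 0.303 in limma). Maff, a small partner of the Nfe2l1 and Nfe2l2 factors, was higher by 1.15 (adjusted p = 0.0831 in limma). Nfe2l1, which drives the transcription of proteasome subunits when proteasome activity falls, overlapped between PF and AF, with a log2 ratio of -0.01. In the class I presentation list 2 of 11 genes were lower and 0 higher (Tap1 and Pdia3, a chaperone of the peptide-loading complex, log2 ratio -0.57). Of 11 genes that supply ubiquitin, 2 were lower and 0 higher, the ubiquitin-conjugating enzyme Ube2l3 (log2 ratio -0.80) and the activating enzyme Uba6 (log2 ratio -0.58). Of 12 genes of endoplasmic reticulum degradation, 1 was lower and 0 higher, the retrotranslocation factor Derl2 (log2 ratio -0.66).

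The remaining core subunits overlapped between PF and AF. The 7 tested alpha subunits, which gate the core, had log2 ratios of -0.43 (Psma4, in a merged entry) to 0.15. Psma6, with the highest alpha level, measured 24.68, 31.54 and 26.47 FPKM in PF and 25.57, 29.43 and 29.17 in AF. Psmb2, with the lowest level of the constitutive beta subunits, measured 8.51, 7.86 and 9.17 FPKM in PF and 8.21, 8.64 and 8.37 in AF. Neither of these showed a group that stood apart.

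In the 19S cap, 0 of the 6 ATPases and 0 of the 10 other subunits passed the unadjusted threshold of limma in AF against PF, where 11.7% of all entries did. The median log2 ratio of the ATPases was -0.02, within a range of -0.07 to 0.21. Psmc3, the ATPase with the highest level, measured 18.14, 17.75 and 16.72 FPKM in PF and 17.74, 16.13 and 17.34 in AF. Psmc2, the one with the lowest, measured 8.85, 8.55 and 7.70 in PF and 9.04, 10.79 and 6.85 in AF. Both sets overlapped.

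Among the other cap subunits, the scaffold Psmd2 had the highest level, with 21.99, 22.05 and 22.69 FPKM in PF and 20.62, 20.54 and 17.56 in AF. Its AF libraries all lay below PF, with a log2 ratio of -0.18 (adjusted p = 0.617 in limma). The deubiquitinase Psmd14, which removes ubiquitin chains from substrates, had the lowest level, at 5.69, 6.24 and 5.96 FPKM in PF and 5.28, 6.43 and 4.24 in AF. The ubiquitin receptor Psmd4 measured 12.86, 10.76 and 10.31 FPKM in PF and 12.17, 15.42 and 12.92 in AF, with overlap and a log2 ratio of 0.26 (adjusted p = 0.587 in limma). Adrm1, another intrinsic ubiquitin receptor of the cap, is not among the members by name and measured 8.14, 7.59 and 7.78 FPKM in PF against 10.08, 11.25 and 9.73 in AF. It was the only 1 of 16 tested proteasome partners that passed the unadjusted threshold, which 11.7% of all entries passed. Its log2 ratio was 0.40 (adjusted p = 0.327 in limma).

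The chaperones and activators gave 0 calls in AF against PF at the unadjusted threshold of limma, which 11.7% of all entries passed. Psmd5, an assembly chaperone of the cap base, measured 3.33, 3.23 and 3.14 FPKM in PF and 2.80, 3.03 and 2.33 in AF, all AF below all PF (log2 ratio -0.25, adjusted p = 0.594 in limma). Psmg4, an assembly chaperone of the core, measured 3.38, 3.71 and 2.82 FPKM in PF and 4.28, 5.09 and 3.94 in AF, all AF above all PF (log2 ratio 0.43, adjusted p = 0.431 in limma). In all, 7 of 46 members had no overlap between PF and AF, against a background of 18.3% of entries. Psmb6 and Psmg4 were higher (background 8.18%), and Psmb7, Psmb9, Psmd2, Psmd5 and Psmf1 were lower (background 10.1%).

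Psme1 and Psme2 encode the subunits of the PA28 activator, which interferon induces and which opens the core without ubiquitin. Psme1 measured 10.21, 7.71 and 15.95 FPKM in PF and 13.83, 17.51 and 11.23 in AF, against 23.79, 21.22 and 12.30 in AF with MNA. Psme2 measured 13.02, 10.93 and 11.41 FPKM in PF and 10.76, 11.08 and 12.84 in AF, against 12.83, 13.93 and 11.70 in AF with MNA. The groups overlapped for both, with log2 ratios of AF to PF of 0.33 (adjusted p = 0.678 in limma) and -0.03 (adjusted p = 0.96). Psme3, the nuclear activator and the lowest of the 4, measured 7.57, 7.75 and 10.97 FPKM in PF and 10.13, 14.46 and 8.66 in AF, and also overlapped.

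**Figure D3:**
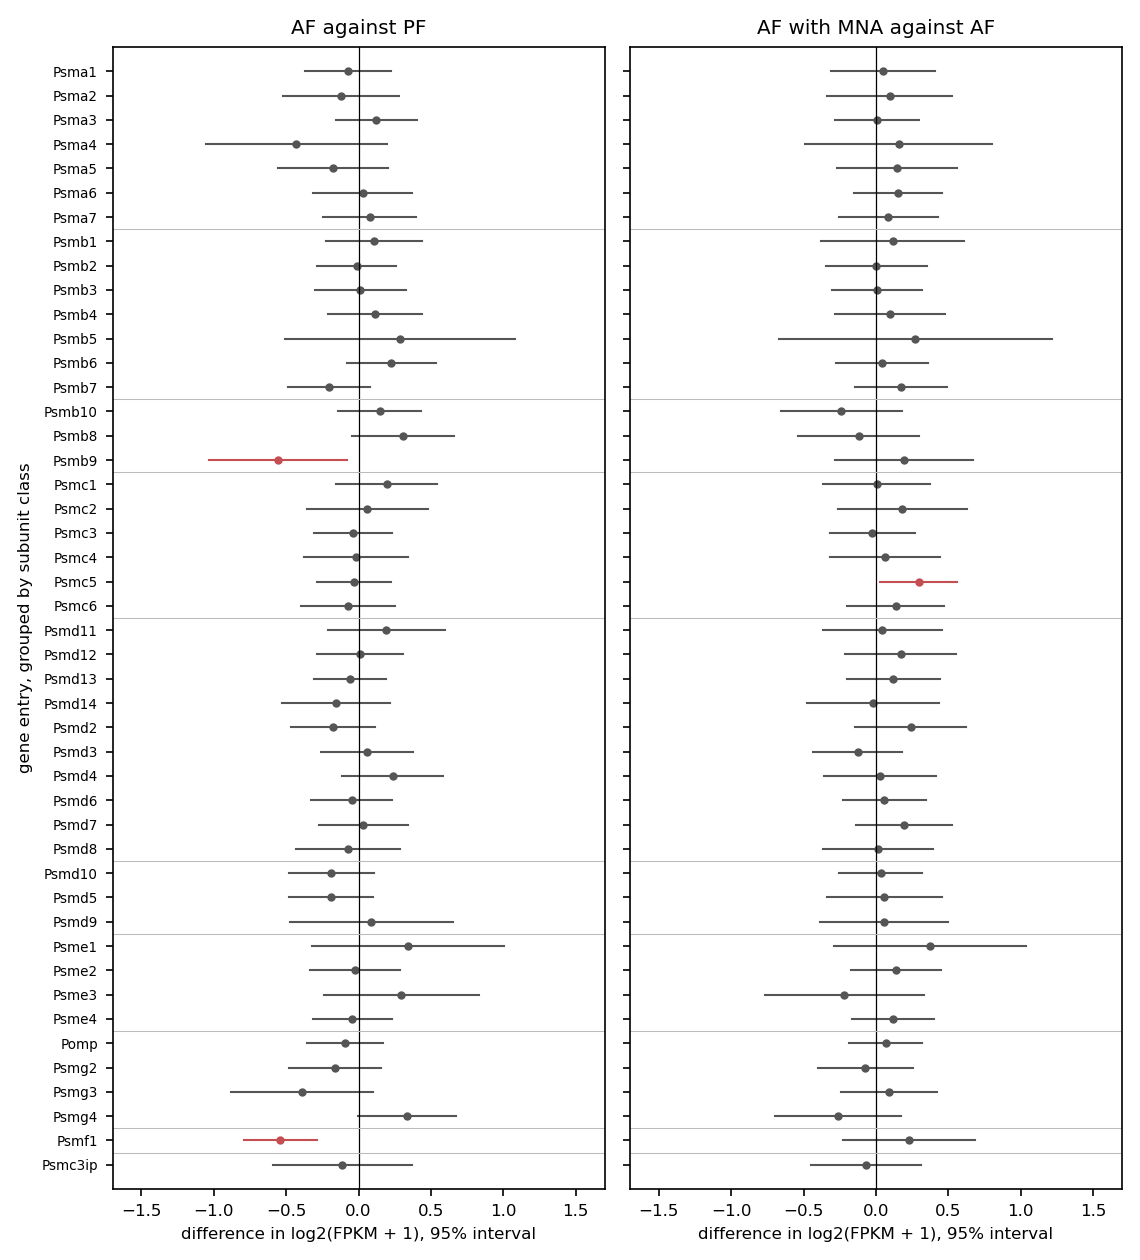
Difference in log2(FPKM + 1) with its 95% interval from limma for the 46 members, AF against PF on the left and AF with MNA against AF on the right, with red for an unadjusted p under 0.05. The red members are Psmb9 and Psmf1 on the left and Psmc5 on the right, and the other intervals include 0.

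In AF with MNA against AF, 1 of the 46 members passed an unadjusted p of 0.05 in limma, against a background of 5.21% of 12219 entries (2.91% higher, 2.3% lower). It was Psmc5, an ATPase of the cap that is also known as a transcriptional regulator. Its FPKM was 8.69, 8.79 and 8.35 in PF and 8.71, 7.97 and 8.55 in AF, against 9.90, 10.77 and 10.98 in AF with MNA. Every AF with MNA library lay above every library of the other groups. The log2 ratio to AF was 0.33 (SE of the limma difference 0.110, adjusted p = 0.94 in limma). It no longer passed the unadjusted threshold without any single AF library or without AF with MNA replicate 2 or 3, with log2 ratios of 0.29 to 0.37 over all alternatives. By the threshold of the methods 0 members passed (background 1.98%), and after adjustment in limma 0 passed (background 0.0491%). A 95% interval of the difference lay within 0.5 of 0 for 28 members (background 40.7%) and within 1 of 0 for 44 (background 84.8%). Psmc5 was also the only member whose AF and AF with MNA libraries did not overlap, against a background of 10.1% (5.53% higher, 4.57% lower).

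Most members had a somewhat higher mean in AF with MNA than in AF. The log2 ratio was above 0 for 37 of 46 members, with a median of 0.09, and for 6250 of 12219 entries, with a median of 0.01. All 14 tested constitutive core subunits and 13 of 16 cap subunits were above 0. These counts depended on single libraries. Without AF with MNA replicate 2, 27 of 46 members were above 0 with a median of 0.01, and 8 of 14 core and 9 of 16 cap subunits were above 0, while 6357 of all 12219 entries were, with a median of 0.01. Without AF replicate 3, 29 of 46 members were above 0 with a median of 0.04, and 6999 of all 12219 entries were, with a median of 0.06. With each library scaled to the same median, 32 of 46 members and 6059 of all 12219 entries were above 0.

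Most core and cap entries deviated in the same direction in some libraries and not in others. In AF with MNA replicate 2, all 16 cap entries and 12 of 14 core entries exceeded their own 9-library means, with median deviations of 0.21 and 0.18 on the log2(FPKM + 1) scale. In AF with MNA replicate 1, 1 of 16 cap entries and 2 of 14 core entries did so, and in AF replicate 3, 2 of 16 and 7 of 14. In AF replicate 1, 1 of 14 core entries did so, with a median of -0.13, but 7 of 16 cap entries did, with a median of -0.03. The medians of all 11801 entries stayed between -0.09 and 0.06. AF replicate 3 and AF with MNA replicate 1 also had the highest summed FPKM of transcripts that the authors' table classes as lying within introns, at 9433 and 8934 against 2477 to 4937 in the other 7 libraries, and AF with MNA replicate 2 had the lowest. The part of this intron signal in the proteasome levels was not tested.

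**Figure D4:**
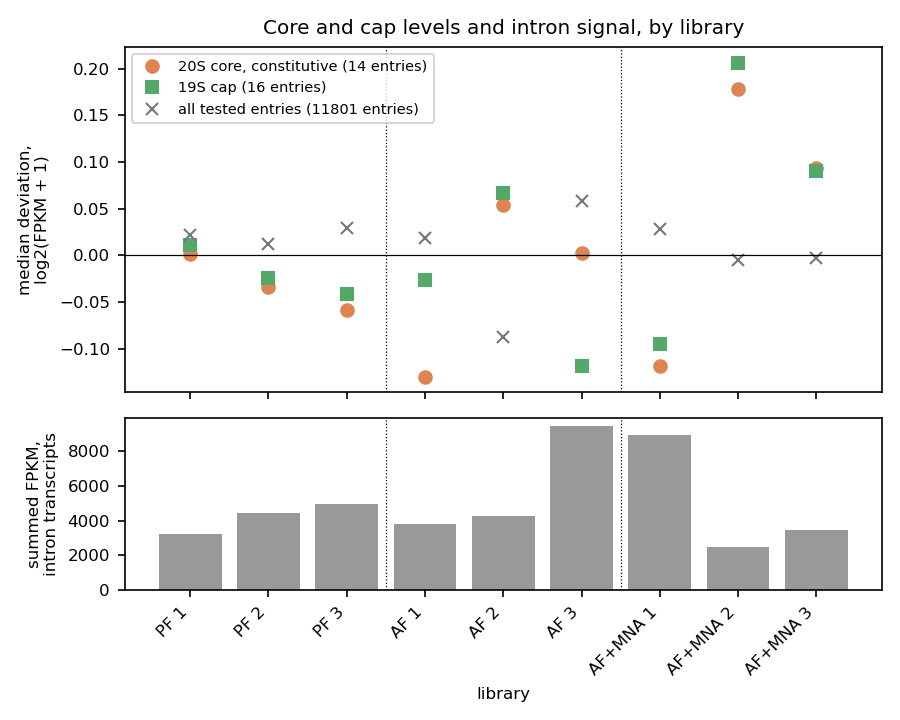
Upper panel: median deviation of 14 constitutive core entries, 16 cap entries and all 11801 tested entries from their own 9-library means, in log2(FPKM + 1), by library. Lower panel: summed FPKM of intron transcripts. The cap is highest in AF with MNA replicate 2 and lowest in AF replicate 3 and AF with MNA replicate 1, where the intron sums are 9433 and 8934.

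The immune subunits and the activators showed 0 calls between AF with MNA and AF at the unadjusted threshold of limma, which 5.21% of all entries passed. The log2 ratios were -0.13 for Psmb8 (adjusted p = 0.987 in limma), 0.30 for Psmb9 (adjusted p = 0.98) and -0.26 for Psmb10 (adjusted p = 0.97). For Psme1 the log2 ratio was 0.43, with an interval of the difference from -0.29 to 1.04 (adjusted p = 0.97 in limma). Psmf1 had a log2 ratio of 0.37 with overlapping libraries (interval of the difference -0.23 to 0.69). Beside the members, the ubiquitin shuttle Ubqln1, which delivers substrates to the cap, was higher in AF with MNA, with 13.18, 15.15 and 13.39 FPKM against 9.48, 9.06 and 10.01 in AF. Its log2 ratio was 0.55 (adjusted p = 0.916 in limma). It was the only 1 of 16 tested partners past the unadjusted threshold. Of 13 regulators, 2 were lower (Maff and Mafk) and 0 higher. Of 12 genes of endoplasmic reticulum degradation, 2 were higher and 1 lower. In the class I presentation list 1 of 11 was lower and 0 higher, and 1 of 14 interferon response genes was higher and 0 lower.

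In AF with MNA against PF, 3 of the 46 members passed an unadjusted p of 0.05 in limma, against a background of 14.5% of 12281 entries, and all 3 were higher in AF with MNA. By direction the background was 6.52% higher and 7.94% lower. Psmc5 had a log2 ratio of 0.29 (adjusted p = 0.286 in limma). Psmb6, with 30.06, 34.92 and 34.38 FPKM in AF with MNA, had a log2 ratio of 0.28 (adjusted p = 0.342). Psmd11, a cap subunit that joins base and lid, measured 16.31, 15.14 and 15.51 FPKM in PF and 17.27, 19.17 and 19.40 in AF with MNA, a log2 ratio of 0.25 (adjusted p = 0.344). In these 3 genes the libraries of PF and AF with MNA did not overlap. Psmb6 and Psmd11 lost the call without any single PF library, and both lost it without AF with MNA replicate 2 or 3. Psmc5 lost it without PF replicate 3 and without AF with MNA replicate 2 or 3.

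By the threshold of the methods 0 members passed against PF (background 3.88%), and after adjustment in limma 0 passed (background 0.423%). A 95% interval of the difference lay within 0.5 of 0 for 26 members (background 44.3%) and within 1 of 0 for 44 (background 83.6%). The libraries did not overlap for 6 of 46 members, against a background of 21.4%. Psma3, Psmb6, Psmc5 and Psmd11 were higher in all AF with MNA than in all PF libraries (background 9.54%), and Psmb9 and Psmd10 were lower (background 11.9%). For Psmb9 the log2 ratio was -0.54 (adjusted p = 0.387 in limma). The counts in lists that follow use an unadjusted limma p of 0.05, which 6.52% of all entries passed higher and 7.94% lower. Leukocyte markers, of which 1 of 5 tested was higher (Lyz2) and 12 of 14 entries were above 0 in every library, summed to 29.8 to 34.5 FPKM in AF with MNA, above the 13.7 to 22.9 FPKM of PF. Lyz2, a lysozyme of myeloid cells, made up most of the sums in AF with MNA and measured 6.66, 6.17 and 16.96 FPKM in PF. Without it the list summed to 7.46 to 7.90 FPKM in AF with MNA and 5.96 to 7.57 in PF, with overlap. Endothelial markers, of which 4 of 6 were higher, summed to 36.9 to 40.3 FPKM against 22.7 to 29.5 in PF, and in AF they summed to 30.5 to 43.2. Of 10 macrophage markers 1 was higher, the scavenger receptor Marco (log2 ratio 1.57, adjusted p = 0.152 in limma), and the list summed to 109.6 to 145.3 FPKM against 85.8 to 126.5 in PF, with overlap. The part of these cells in the members' levels was not tested. Of 18 tested genes of the interferon response, 8 were lower and 0 higher. In the class I presentation list 3 of 11 were lower and 1 higher. Among the proteasome partners 4 of 16 were higher and 0 lower, among them Adrm1, Ubqln1 and Ddi2. The log2 ratios of these genes were 0.49 (adjusted p = 0.223 in limma), 0.42 (adjusted p = 0.192) and 0.39 (adjusted p = 0.271). Ddi2 is the protease that activates Nfe2l1. Nfe2l1 itself measured 6.65, 9.00 and 11.72 FPKM in PF and 10.73, 17.02 and 15.20 in AF with MNA, with overlap (log2 ratio 0.65, adjusted p = 0.335 in limma).

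Circular RNAs of these genes were few, and so were the genes, at 51 of 26350 named entries with a known transcript. Whether they differ in this from other genes was not tested. Of 4486 circular RNAs in the table, 11 came from 7 host genes, Psmd1 included, with 23 back-splice junction reads of 17959 in all libraries together. The most frequent was an exonic circle of 8 exons of Psmd1 (GRCm38 chr1:86078568-86090190), with 6 reads. A 3-exon circle of Psmd2 followed with 5 reads, 2 in PF replicate 3 and 3 in AF replicate 2. With so few reads the groups were not compared.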

How the data were processed

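Liver RNA of 9 mice (3 PF, 3 AF, 3 AF with MNA) was depleted of ribosomal RNA and sequenced strand-specifically from both ends. The deposited FPKM values were made by the authors with StringTie. The processing notes name cutadapt 1.9, FastQC, HISAT2, StringTie 1.3.4, edgeR and TopHat, and the genome build is not given in the sources used here. Coordinates of the tables matched GRCm38. Gene FPKM matched the transcript FPKM weighted by length over the union of exons in 94.1% of 153 entries tested, within 2%. The authors' circular RNA counts are unnormalized junction reads, and their normalized signal, as deposited, gave total reads of 57800660 to 82179248 per library. The lncRNA table also held deposited transcript FPKM and coverage values, and its scores were not used. The gene table gives no counts, so no counting intervals were computed for single genes. The ratio of deposited coverage per base to FPKM in the lncRNA table had a median of 5.84 to 8.30 in the 9 libraries.

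Entries with a known transcript, a gene name and an average of 0.5 FPKM or more in the 6 libraries of a comparison entered limma 3.58.1 (R 4.3.3; lmFit, eBayes with trend) on log2(FPKM + 1), two-sided, with Benjamini-Hochberg adjustment over all tested entries. A fold change is the log2 ratio of group mean FPKM, and differences on the log2(FPKM + 1) scale understate changes of low genes. Ratios of subunits were compared by exact two-sided permutation tests. The steps were tested on simulated data. In the simulation of AF against PF, 100 genes with a simulated mean of at least 5 FPKM were changed by a log2 fold of 1. Of these, 87% passed an unadjusted threshold of 0.05 in limma. Lower genes such as Psmf1 and Psmb9 were not among those changed, so this share does not apply to them. The genes named are the catalytic subunits, Psme1, Psme2, Pomp, Psmd4, every member with p under 0.05, the highest and lowest of each class, and in other lists genes past the methods' threshold or with the 2 lowest p-values. Further genes were named for non-overlap or position after their values were seen. The members and lists were chosen with earlier results of these data known. Alternatives were other pseudocounts, filters, scalings, models and samples left out. P-values measure the spread between these libraries. RefSeq promoter windows (GRCm38.p6) were matched by symbol, and protein sequences were not used here. Matches to motifs were counted by window. Some genes of the lists are counted and not reported here by name.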

Additional observations from a re-analysis of the deposited data

Results flagged for a closer look

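A circular RNA of 8 exons of Psmd1, the largest subunit of the 19S cap, was seen in AF and not in PF. Its back-splice junction had 5 reads in AF (0, 1 and 4 in the 3 libraries), 0 in PF and 1 in AF with MNA. It was singled out because the circular RNA table lies outside the gene comparisons and its AF reads exceeded those of the controls. Of its 5 AF reads, 4 came from AF replicate 3, the library with the highest intron signal, and a count of 0 in a library allows up to 3 reads. A circular RNA of 4 exons of Psma6 went the other way, with 4 reads in PF, all in replicate 3, and 0 in AF and in AF with MNA. Neither difference was tested.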

How the results depend on the processing

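Member counts under other settings are given here without the share of all entries that passed under the same setting. They show how the calls move with the setting, and not how members compare with all entries. With libraries scaled to the same median, the members past an unadjusted 0.05 in AF with MNA against PF went from 3 to 1. With a library-size covariate in a linear model without moderation they were 7 in AF against PF (main value 2) and 6 in AF with MNA against PF. With any value above 0, 1 member, Psma8, passed the methods' threshold in AF with MNA against PF. The replicate numbers did not pair the samples, since the correlation of same-numbered deviations lay between -0.08 and 0.06. With the replicate block the p counts were 3 in AF against PF, 0 in AF with MNA against AF and 0 in AF with MNA against PF, and the exact p of a subunit ratio could not go below 0.25, the smallest that 3 pairs allow, so that test says nothing about the ratios. Leaving out 1 library gave 1 to 3 members past an unadjusted 0.05 in AF against PF (1 without AF replicate 2), 0 to 3 in AF with MNA against AF (0 without AF replicates 1, 2 or 3 or AF with MNA replicate 2, 3 without replicate 1, 2 without replicate 3), and 1 to 8 in AF with MNA against PF (8 without AF with MNA replicate 1, 1 without replicate 2, PF replicate 1 or PF replicate 3). By the methods' threshold the range was 0 to 1 in AF against PF (Psmb9, without AF replicate 1) and 0 to 1 in AF with MNA against PF (Psme1, without PF replicate 3). No member passed an adjusted p of 0.05 in limma under any of these settings, and none of the called members changed direction. The log2 ratio of group mean FPKM holds no pseudocount, trend, block or covariate, so those settings could change the p and not the direction of that ratio. Psmb9 in AF also lost its unadjusted call with the library-size covariate. Over all genes that the naming rule selected, 675 values under an alternative kept the unadjusted call and 175 lost it. The causes of these shifts were not tested. No counting intervals were computed, so the counting error of genes near 1 FPKM such as Psmb9 is not given.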
